A study of Drosophila melanogaster with 63 samples.

Results

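The cytoplasmic ribosomal protein genes of Drosophila melanogaster encode the proteins of the large (RpL) and small (RpS) subunits of the ribosome. The genes described here are the protein-coding genes of Release 6 whose symbol begins with RpL or RpS followed by a digit or by P. The rule took 92 of the 13922 protein-coding genes on the 6 main chromosomes, 54 of the large and 38 of the small subunit. Among these, 5 have a symbol ending in -like (RpL7-like, RpL22-like, RpL24-like, RpLP0-like and RpS28-like). The symbol rule does not take sta and Rack1, which also encode proteins of the small subunit.

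The study mapped NURF301 and proteins of the gypsy insulator by chromatin immunoprecipitation and sequencing in Kc167 cells, an embryonic line of female origin. For each knockdown, double-stranded RNA of Nurf301, Cp190 or su(Hw) was transfected (5 ug), and cells then grew for 4 days at 25°C. For the NURF301 knockdown there were 3 peak lists each with the NURF301, CP190 and Su(Hw) antibodies. The CP190 knockdown had 2 lists each with the NURF301 and CP190 antibodies, and the Su(Hw) knockdown had 3 lists each with all 3 of these antibodies. A line described as carrying Mod(mdg4) fused to GFP had 3 lists with a GFP antibody. Mock-treated cells came in a pair of series, called mock and mock2 after their titles (no other label separates them), each with 3 lists of NURF301, CP190 and Su(Hw), and mock had 3 lists of Mod(mdg4)67.2 besides. All samples are of the same cell line or its GFP derivative, and the labels do not say whether replicates were separate cultures, so p-values measure only the spread between these lists. Neither the driver of the fusion protein nor the amount of each protein left after knockdown is stated in the labels.

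Ribosomal protein genes are transcribed at a high rate in almost all cells. In Drosophila many have a promoter with a polypyrimidine initiator, and loss of a single copy of many of them gives the slow-growing Minute phenotype. NURF301 is the largest subunit of NURF, a complex that slides nucleosomes with the ISWI ATPase. Su(Hw), with its many zinc fingers, is the DNA-binding protein of gypsy-type insulators, where it meets Mod(mdg4)67.2 and CP190, and CP190 is also known at many active promoters without Su(Hw).

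A gene was counted as having a protein in a list when any base of a peak lay within 500 bp of either annotated gene end. The gene table used here gives no strand, so the start and the end of a gene were not told apart. A gene has the protein in mock cells when this held in at least 4 of the 6 mock and mock2 lists, or in at least 2 of the 3 lists for Mod(mdg4)67.2 and GFP. Read numbers of the libraries are not stated in the labels, and list length stands in for depth. NURF301 lists held 4608 to 8226 peaks in mock cells, and CP190 lists 5984 to 10553. The Su(Hw) lists of mock cells held 3990 to 5358 peaks, those of Mod(mdg4)67.2 1685 to 2813, and those of GFP 949 to 2849. A missing peak cannot tell fewer cells with the protein apart from less protein per cell or from a shallower library.

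NURF301 and CP190 lay at the ends of most ribosomal protein genes in mock cells, and the 3 other antibodies at few. NURF301 was present at 87 of the 92 genes (94.6%), where all protein-coding genes gave 55.9%. CP190 was present at 77 genes (83.7%, against 52.8% of all genes). Su(Hw) was present at 5 genes (5.43%, against 9.30% of all genes), Mod(mdg4)67.2 at 4 genes (4.35%, against 6.03%) and GFP at 5 genes (5.43%, against 5.81%). The large subunit had NURF301 at 51 of 54 genes and CP190 at 42 of 54, and the small subunit had them at 36 and 35 of 38 genes. No test was made of these shares, since the list was chosen with results of these data known.

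**Figure D1:**
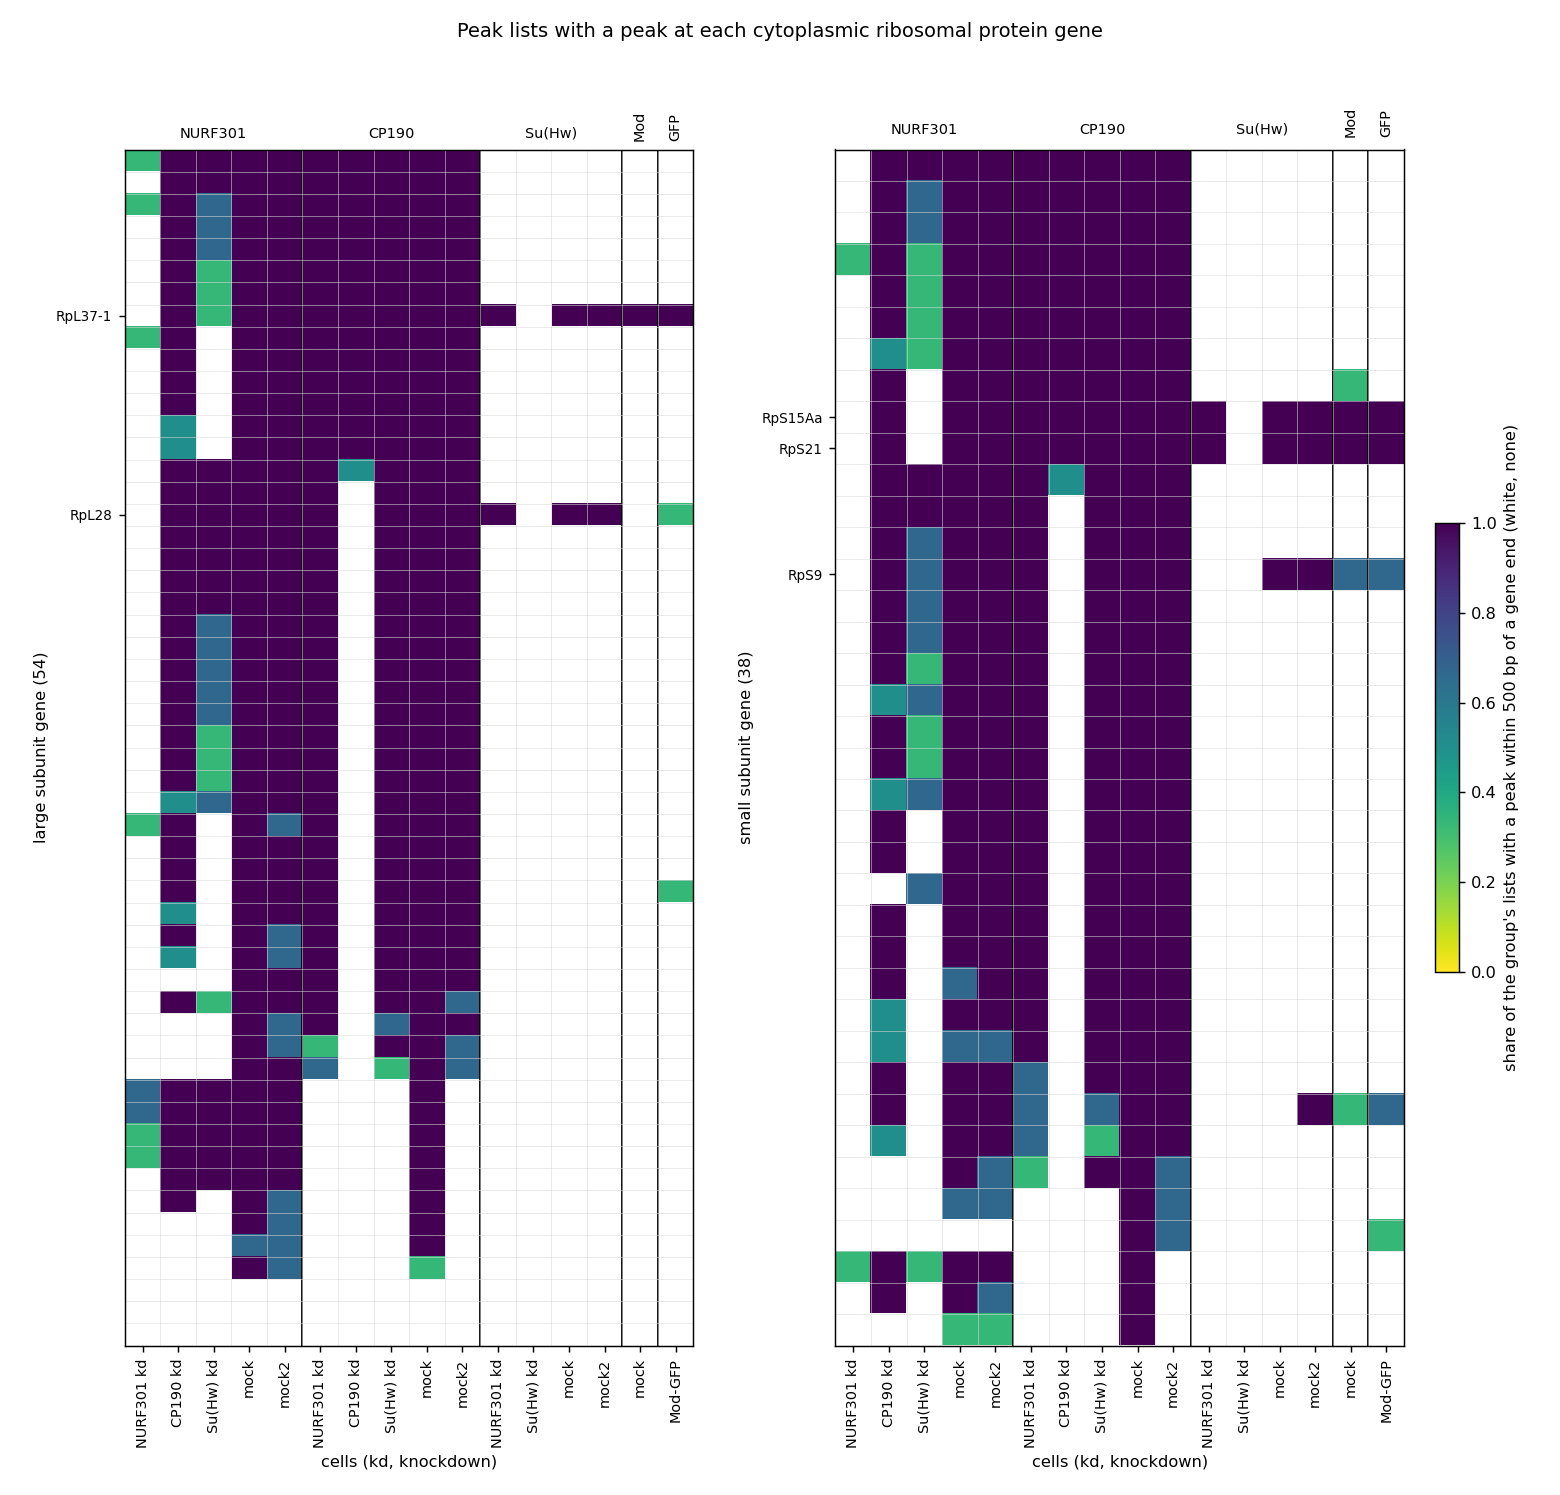
Share of each group's peak lists (colour, 0 to 1; white, none) with a peak within 500 bp of an end of each of the 92 cytoplasmic ribosomal protein genes, 1 gene a row, large subunit on the left and small subunit on the right; columns are the groups of lists under each antibody. Rows are ordered by the number of lists with CP190 after CP190 knockdown, then by all CP190 and all NURF301 lists, and the 5 genes with Su(Hw) in mock are labelled. NURF301 is present in mock at 87 genes and CP190 at 77, and after CP190 knockdown the 24 genes at the top of the panels keep CP190 in both lists.

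By combination, 71 ribosomal protein genes (77.2%, against 43% of all genes) had NURF301 and CP190 without Su(Hw) or Mod(mdg4)67.2. NURF301 without any of the other 3 was found at 11 genes (12%, against 7.18% of all genes). All 4 proteins met at 4 genes (4.35%, against 4.42%), namely RpL37-1, RpS9, RpS15Aa and RpS21. RpL28 had NURF301, CP190 and Su(Hw) without Mod(mdg4)67.2. RpS10a had CP190 alone. None of the 4 proteins was called at RpL10Aa, RpL22-like, RpL37-2 and RpS28-like (4.35%, against 39.2% of all genes).

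NURF301 was listed in all 6 mock lists at 73 genes and in 5 of 6 at 11 more (RpL4, RpL9, RpL12, RpL14, RpL27A, RpL31, RpL36A, RpL39, RpS3A, RpS15Ab and RpS18). RpL40, which encodes a ubiquitin fusion protein, RpS5b and RpS7 had it in 4 of 6 lists. RpS28-like had it in 2 of 6. There was no NURF301 peak in any mock list at RpL10Aa, RpL22-like, RpL37-2 and RpS10a. The number of ribosomal protein genes with NURF301 was 88, 87 and 83 in the mock lists and 87, 74 and 88 in the mock2 lists, and the list with 74 was the shortest of the 6.

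CP190 was listed in all 6 mock lists at 71 genes and in 5 of 6 at RpL7-like, RpL9, RpL10Ab, RpS5b, RpS10a and RpS15Ab. RpL39 had it in 1 of 6, and RpL10Aa, RpL22-like and RpL37-2 in none. The number of genes with CP190 was 88, 88 and 89 in the mock lists and 71, 77 and 77 in the mock2 lists, so that the mock and mock2 counts did not overlap. The difference came mainly from 11 genes that had CP190 in all 3 mock lists and in none of the 3 mock2 lists: RpL5, RpL10, RpL12, RpL15, RpL21, RpL31, RpL38, RpL40, RpS3A, RpS27A and RpS28-like. They were 12% of the ribosomal protein genes, and the same pattern was seen at 5.36% of all genes. None of the 11 had a CP190 peak in any list of the NURF301, CP190 or Su(Hw) knockdown. CP190 lists were longer in mock (10095 to 10553 peaks) than in mock2 (5984 to 8813 peaks), and the part of list length in this pattern was not tested.

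**Figure D2:**
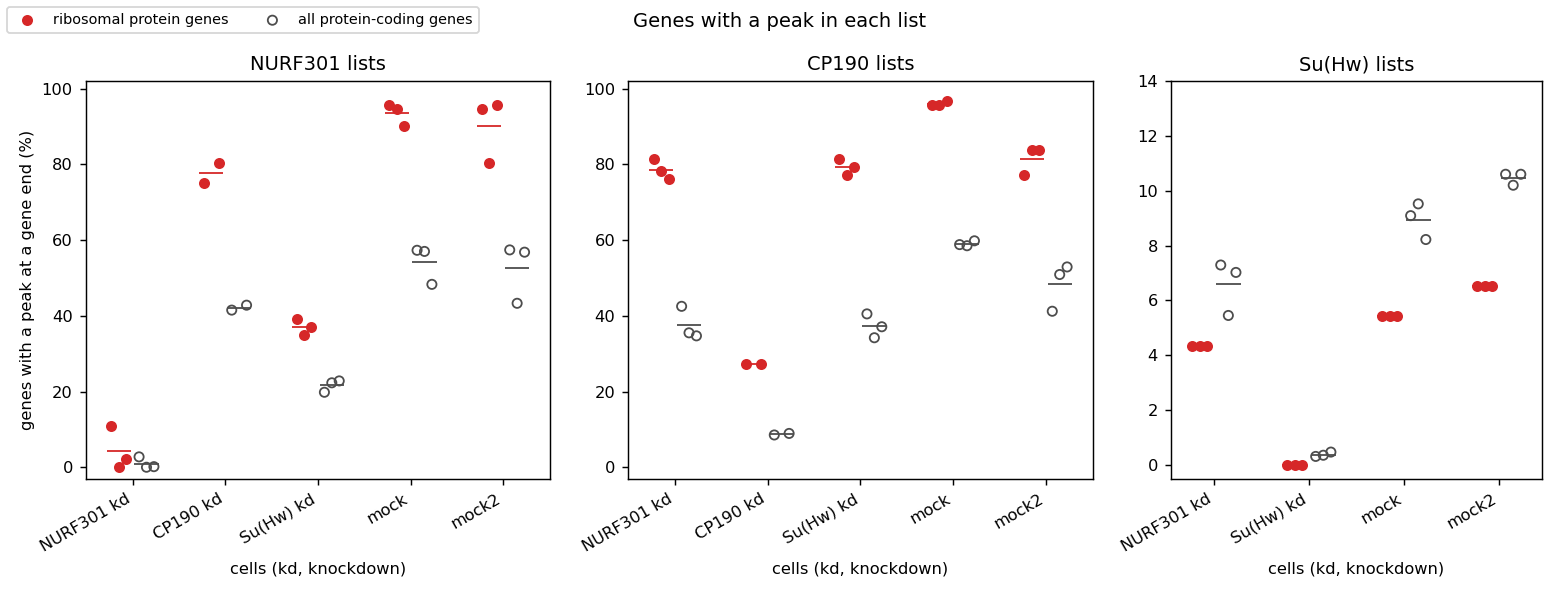
Percentage of genes with a peak at a gene end in each list (1 point per list, horizontal line at the group mean), for the 92 cytoplasmic ribosomal protein genes (filled) and all 13922 protein-coding genes (open), under 3 antibodies; the Su(Hw) panel has its own scale. The filled points lie above the open ones in the NURF301 and CP190 panels, except for the 2nd NURF301 knockdown list, where both are at 0, and below them in the Su(Hw) panel.

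The strength of a peak was read from the authors' −log10 q, as its percentile among all peaks of its own list. Fold enrichments are printed beside it, and those of different lists have no common scale. For NURF301, among genes with a peak in all 6 lists, the 5 ribosomal protein genes with the highest median percentile over the 6 lists were RpL38, RpL21, RpL10, RpL5 and RpL15. RpL5 protein enters the ribosome with the 5S rRNA, and RpL10 protein is added late in large subunit assembly. RpL5, RpL15 and RpL38 are known as genes of pericentric heterochromatin. The strongest peak of RpL38, at chr2R:4516170-4517698, had a fold enrichment of 16.5, 13.6 and 25 in the mock lists and 27.5, 9.59 and 22.5 in the mock2 lists. Its percentile was 96.5 to 99.8. RpL21 (chr2L:22247338-22250298) had a median percentile of 99.4, RpL10 (chr3L:23095185-23095926) of 98.8, RpL5 (chr2L:22536379-22538652) of 98.7 and RpL15 (chr3L:27266792-27267741) of 98.5. These 5 peaks were thus among the strongest of nearly every NURF301 list. In the shortest list, mock2 replicate 2, the percentile was 66.2 at RpL10 and 83.1 at RpL15. Over the 73 genes with NURF301 in all 6 lists the median was 70, and the lowest was RpL10Ab at 41.5.

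All 5 of these genes belong to the 11 with CP190 in the mock lists alone, and their CP190 peaks there were weak. RpL38 had CP190 at a fold enrichment of 6.45, 4.36 and 4.99 in the 3 mock lists, and at percentiles 28.2, 18.8 and 23.3 there. RpL15 stood at percentiles 16.6, 16.3 and 27.3, and RpL5 at 37.9, 34.5 and 47.8. Across the 11 genes the median CP190 percentile was 21.4 (13.5 to 38.1 by gene), and across the 71 genes with CP190 in all 6 lists it was 78.5 (29.6 to 97.7). The median NURF301 percentile was 95.2 over the 10 of these 11 genes that had NURF301 in mock, and 66.8 over the 71. Within the 10 it was uneven, with RpS27A, a ubiquitin fusion gene, at 91.8, RpS3A, on chromosome 4, at 64, RpL12 at 53.2, RpL31 at 42.2 and RpL40 at 21.9.

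**Figure D3:**
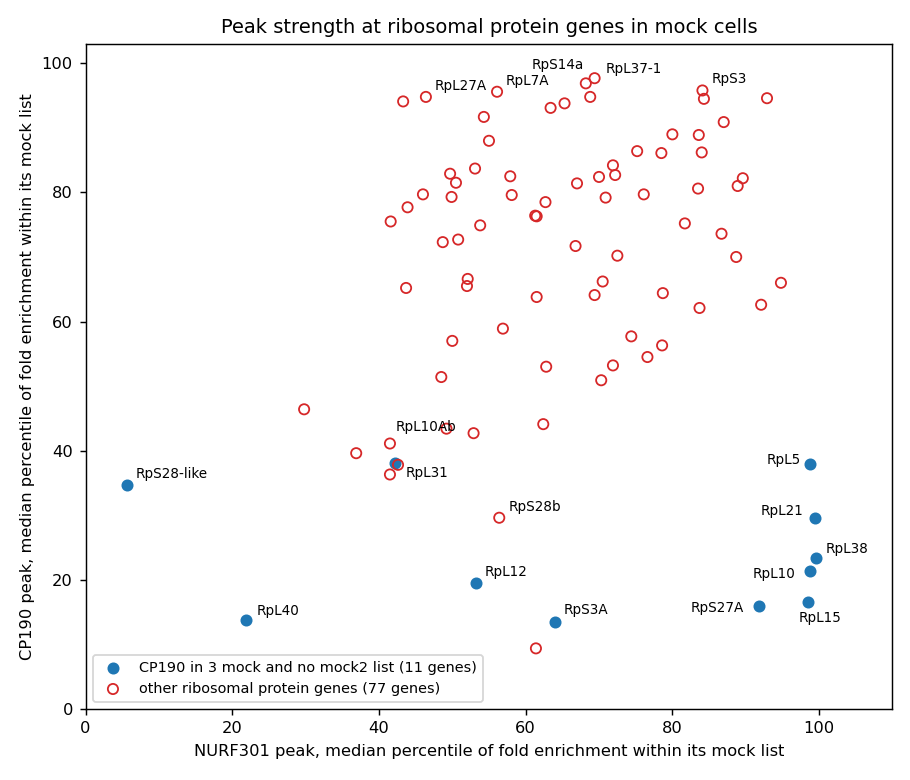
Median percentile of the NURF301 peak (horizontal) and of the CP190 peak (vertical) within their mock and mock2 lists, 1 point for each of the 88 cytoplasmic ribosomal protein genes with a peak of both in at least 1 list; filled points are the 11 genes with CP190 in 3 mock and no mock2 list. RpL38, RpL21, RpL10, RpL5 and RpL15 sit at the right edge with CP190 percentiles of 16.6 to 37.9. Percentiles are by −log10 q, although the axes name fold enrichment.

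Among the 71 genes with CP190 in all 6 lists, it was strongest at RpL37-1, RpS14a, RpS3, RpL7A and RpL27A. RpL37-1 had CP190 at chrX:15136638-15137777 with a fold enrichment of 15.4, 11.2 and 6.69 in mock and 38.5, 20 and 27.6 in mock2. Its percentile was lowest in mock replicate 3, at 76.4, and its median percentile was 97.7. RpS14a (chrX:7933066-7933957) had a median percentile of 96.9, RpS3 (chr3R:23358158-23359111), whose protein lies at the mRNA entry site, of 95.8, RpL7A (chrX:6533055-6534253) of 95.6 and RpL27A (chr2L:4458241-4459168) of 94.8. RpS28b was the lowest of the 71, at 29.6. RpS10a, with CP190 in 5 lists, had a median percentile of 95.7. Within each mock list, the median CP190 percentile of ribosomal protein genes with a peak was 66.1 to 78.8, and that of all genes with a peak was 50.9 to 64.6. For NURF301 these medians were 52.9 to 70.2 and 57.1 to 69.4.

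NURF301 and CP190 peaks lay at nearly the same place. At the 87 genes with NURF301 the summit was a median of 131.5 bp from the nearest gene end, 61 of them within 250 bp, and it fell outside the gene at 78. At the 77 genes with CP190 the median distance was 134.5 bp, 52 were within 250 bp, and the summit was outside the gene at 72. The distance between both summits had a median of 44.2 bp over the 76 genes with both proteins and was within 100 bp at 62. The largest gaps, of 2919 bp at RpS4, 3099 bp at RpL17 and 5156.5 bp at RpS5a, are distances between peaks at opposite ends of the gene.

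Many of these genes share their ends with a neighbour. Another protein-coding gene ended within 500 bp of an end of 70 ribosomal protein genes (76.1%, against 71% of the other protein-coding genes). Where a neighbour ended there, NURF301 was present at 98.6% of the ribosomal protein genes and 66.9% of the other genes, and CP190 at 91.4% and 62.5%. Where none did, NURF301 was present at 18 of 22 ribosomal protein genes (81.8%, against 28.3% of other genes) and CP190 at 13 (59.1%, against 28.4%). A peak at a shared end cannot be assigned to either gene.

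Su(Hw) was listed in all 6 mock lists at RpL28, RpL37-1, RpS9, RpS15Aa and RpS21. RpL37-1 had a Su(Hw) fold enrichment of 19.7, 24.3 and 25 in mock and 9.08, 7.65 and 6.09 in mock2. RpS15Aa had 22, 18 and 22.7 in mock and 8.31, 6.85 and 5.2 in mock2. RpS21 had 21.8, 15.8 and 24.9 in mock and 7.81, 5.19 and 4.74 in mock2. These 3 genes thus had Su(Hw) in every list of both series. RpS9 was lower in mock, at 7.86, 6.35 and 5.2 in mock and 8.27, 4.92 and 5.12 in mock2. RpS13 had Su(Hw) in all 3 mock2 lists, with a fold enrichment of 4.47 to 5.38, and in no mock list.

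Mod(mdg4)67.2 and GFP marked nearly the same genes. RpL37-1, RpS15Aa and RpS21 had Mod(mdg4)67.2 in 3 of 3 lists and GFP in 3 of 3 lists. RpS9 had both in 2 of 3 lists, and RpS13 had GFP in 2 and Mod(mdg4)67.2 in 1. Single lists held RpS15 for Mod(mdg4)67.2, and RpL28, RpLP0 and RpS10a for GFP. Su(Hw) summits lay farther out than those of NURF301 and CP190, at a median of 459 bp from the nearest end of the 5 genes. Only 3 of the 5 Su(Hw) genes, 1 of the 4 Mod(mdg4)67.2 genes and 3 of the 5 GFP genes had the summit itself within 500 bp in enough lists.

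All 5 genes without NURF301 in mock belong to pairs of paralogues, as their symbols show. RpL22, with NURF301 and CP190 in 6 of 6 lists each, stood against RpL22-like, a paralogue enriched in the male germline, with a peak in no list. RpL37-1 and RpL37-2 differed in the same way, and RpL10Ab, with NURF301 in 6 and CP190 in 5 lists, stood against RpL10Aa with none. RpS10b had NURF301 and CP190 in 6 of 6 lists, and RpS10a, a germline paralogue, had NURF301 in none and CP190 in 5. RpS5a had 6 and 6, and its ovary paralogue RpS5b had 4 and 5. In contrast, RpS14a and RpS14b, which lie side by side and end in each other's windows, had both proteins in 6 of 6 lists, and so had the pairs RpS19a and RpS19b, RpS28a and RpS28b, RpL34a and RpL34b, RpL24 and RpL24-like, and RpLP0 and RpLP0-like. How reads that match near-identical copies were placed is not stated in the labels, so the values of such pairs are uncertain.

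The other genes of translation give a comparison by the same rule. NURF301 was present in mock at 73 of 73 mitochondrial ribosomal protein genes, 35 of 44 initiation factor genes and 7 of 7 elongation factor genes. CP190 was present at 58, 30 and 6 of them. Su(Hw) was present at 1, 3 and 1.

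The knockdowns were compared with all 6 mock lists, gene by gene, with the two-sided Fisher exact test on the number of lists with a peak. Its p-values were adjusted by the Benjamini-Hochberg method over all genes whose number of lists with a peak could reach 0.05. A gene was called lost or gained at an adjusted p under 0.05, and 3 against 6 lists cannot go below p = 0.0119 before adjustment in this exact test. The number of lists with a peak fixes what can be called. With 9 lists, genes with a peak in 5 or 6 could be called lost, genes with 3 or 4 could be called gained, and all others were not tested. With the 8 lists of a CP190 knockdown comparison, the totals were 6 for a loss and 2 for a gain. Genes that had the protein in every mock list and kept it in every knockdown list were thus never among the genes tested, so shares are also given over all genes with the protein in mock. The same mock lists serve several knockdowns, so the comparisons are not independent. With the full lists, no ribosomal protein gene was called gained in any of the 8 comparisons. Of all genes tested, 0.0749% (2 of 2672 genes) were called gained for CP190 after Su(Hw) knockdown and 0% in each of the other comparisons.

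After NURF301 knockdown the NURF301 lists were nearly empty, with 253, 1 and 24 peaks. They held 10, 0 and 2 ribosomal protein genes, a mean of 4 ± 5.29 (SD, n = 3), against 84.5 ± 5.47 in mock cells (SD, n = 6). The groups did not overlap, and against the mock series alone the difference was -82 genes. NURF301 was called lost at 64 of the 78 ribosomal protein genes tested, each with an adjusted p of 0.0163 in the Fisher exact test, and 73.1% of all genes tested were called lost. Over the genes with NURF301 in mock, 73.6% of ribosomal protein genes and 70.6% of all genes were called lost. RpL15 and RpL38 kept NURF301 in 2 of the 3 knockdown lists, and RpL5, RpL7, RpL14, RpL17, RpL21, RpL41, RpS27A and RpS29 in 1. RpL38 had a fold enrichment of 11.6 and 8.13 in the knockdown lists that held it, and RpL15 had 8.52 and 10.7. Of the other genes with NURF301 in mock, 13 (0.169%) kept it in 2 lists.

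CP190 stayed at most ribosomal protein genes after NURF301 knockdown. The CP190 lists of this knockdown were shorter, with 5463, 4091 and 4226 peaks against 5984 to 10553 in mock cells. The lists held 75, 72 and 70 of these genes, a mean of 72.3 ± 2.52 (SD, n = 3), against 81.7 ± 7.63 in mock cells (SD, n = 6), and the groups overlapped. Of the 77 genes with CP190 in mock, 93.9% ± 3.27 had it in a knockdown list, and of the other genes with CP190 in mock 70.6% ± 7.97 (SD over 3 lists each; the difference was not tested). In mock lists the median CP190 percentile was 66.1 to 78.8 for ribosomal protein genes and 50.9 to 64.6 for all genes. The part of list length and of mock peak strength in the kept shares was not tested. It was listed in all 3 knockdown lists at 69 genes (89.6%, against 57.8% of the other genes with CP190 in mock). None of 15 ribosomal protein genes tested was called lost by the Fisher exact test, and 0% of all genes tested were. Only 4 of the 15 had peak numbers at which a loss could be called. The unadjusted exact p was under 0.05 at 2 of the 15 (13.3%) and at 960 of 2454 genes tested (39.1%). The 2 genes were RpS5b and RpS10a, with CP190 in 0 of 3 knockdown lists and 5 of 6 mock lists each (exact p = 0.0476, adjusted p = 0.122). Without mock2 replicate 1, the shortest of the mock lists, both were called lost. RpL9 and RpS15Ab had CP190 in 1 knockdown list, and RpL10Ab, RpS12, RpS13 and RpS28b in 2. Knockdown minus mock, the mean difference was -9.33 genes against all mock lists, -16 against the mock series alone and 8.83 with every list reduced to the same number of strongest peaks.

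Su(Hw) was listed at RpL28, RpL37-1, RpS15Aa and RpS21 in all 3 lists of the NURF301 knockdown. RpS9 had it in 0 of 3 knockdown lists and 6 of 6 mock lists and was the only ribosomal protein gene called lost, of 2 tested (Fisher exact test, adjusted p = 0.0391). Of all genes tested, 30.4% were called lost. Leaving out any of the 3 knockdown lists ended the call. Of the ribosomal protein genes with Su(Hw) in mock, RpS9 had the lowest median percentile there, 26.4 against 54 to 75.7 at the others. The Su(Hw) lists of this knockdown were shorter, with 3539, 2625 and 3315 peaks against 3990 to 5358 in mock cells. The part of list length and of peak strength in this call was not tested. With every list reduced to the same number of strongest peaks, no ribosomal protein gene was tested, so none could be called. The mean was 4 ± 0 genes (SD, n = 3), against 5.5 ± 0.548 in mock cells (SD, n = 6) and a difference of -1 against the mock series alone. RpS13, with Su(Hw) in the mock2 lists alone, had none here.

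After CP190 knockdown the CP190 lists were short, with 1203 and 1280 peaks. They held 25 ribosomal protein genes each (SD 0, n = 2), against 81.7 ± 7.63 in mock cells (SD, n = 6). The groups did not overlap. CP190 was called lost at 45 ribosomal protein genes (Fisher exact test, adjusted p = 0.0367), 58.4% of the 77 with CP190 in mock, against 59.9% of all genes with CP190 in mock. The 45 were all the ribosomal protein genes tested, and 97.3% of all genes tested were called lost; each of the 45 had 0 of 2 and 6 of 6 lists, and genes that kept CP190 beside 6 mock lists were not tested. With 2 lists this rests on the smallest p the design allows, 0.0357 in the exact test, and the call ended at all 45 genes when replicate 1, 2 or 3 of the mock series was left out. The difference was -63.3 genes against the mock series alone and 1.5 with every list reduced to the same number of strongest peaks, where 0 genes were called.

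CP190 was kept in both CP190 knockdown lists at 24 ribosomal protein genes, 31.2% of the 77 with CP190 in mock, against 14.8% of the other genes with CP190 in mock. Among them are RpL3, RpL7, RpL7A, RpL19, RpL22, RpL37-1, RpLP2, RpS14a, RpS15Aa, RpS19a and RpS21. RpL34b and RpS5a had it in 1 list, and 51 genes in none. The same 24 genes had CP190 in every list of the NURF301 and Su(Hw) knockdowns as well. Of the 51 genes, 43 had it in every NURF301 knockdown list and 45 in every Su(Hw) knockdown list. The median CP190 percentile in mock was 86.3 (70 to 97.7) at the 24 genes and 66 (29.6 to 95.8) at the 51. RpS14a had a fold enrichment of 12 and 11 in the CP190 knockdown lists, and RpL37-1 had 9.22 and 7.5. RpS3 and RpL27A, among the 5 strongest of the genes with CP190 in all 6 mock lists, had no CP190 peak in either knockdown list. Su(Hw) was present at 3 of the 24 genes (RpL37-1, RpS15Aa and RpS21) and at 2 of the 51.

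NURF301 was still listed at most ribosomal protein genes after CP190 knockdown. The lists held 69 and 74 genes, a mean of 71.5 ± 3.54 (SD, n = 2), against 84.5 ± 5.47 in mock cells (SD, n = 6), and the groups touched at 74. Against the mock series alone the difference was -14.5 genes. Of the 87 genes with NURF301 in mock, 82.2% ± 4.1 had it in a knockdown list, against 75.2% ± 1.77 of the other genes (SD over 2 lists each). None of 5 ribosomal protein genes tested was called lost, and 0% of all genes tested were. At an unadjusted exact p under 0.05 there were 3 (RpL10Ab, RpL35A and RpS14b, each in 0 of 2 and 6 of 6 lists, exact p = 0.0357, adjusted p = 0.0859), and 307 of the 738 genes tested (41.6%). Another 7 genes had no NURF301 in either list, namely RpL4, RpL9, RpL31, RpL39, RpL40, RpS5b and RpS15Ab. Together these were 10 of the 87 genes. Of the other genes with NURF301 in mock, 18.7% had none in either list, and the difference was not tested. Of the 24 genes that kept CP190, 21 had NURF301 in both lists, and of the 51 that had no CP190 peak, 35 did.

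**Figure D4:**
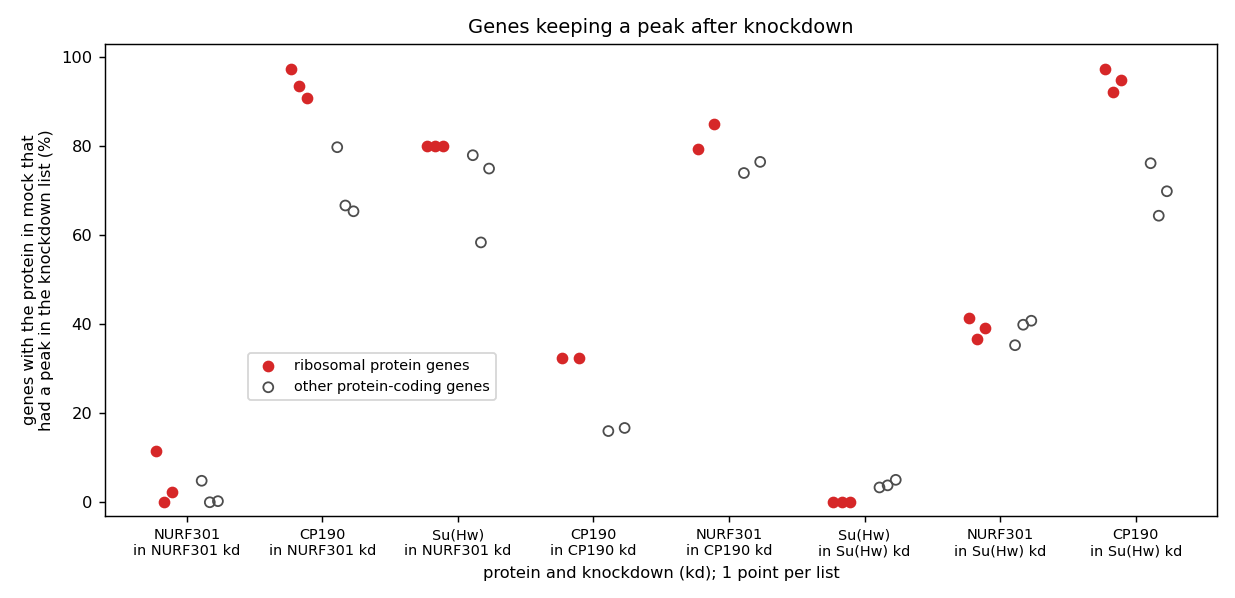
Percentage of genes with a protein in mock cells that had a peak of it in each knockdown list (1 point per list), for cytoplasmic ribosomal protein genes (filled) and the other protein-coding genes (open), for the 8 comparisons. The CP190 points after NURF301 and Su(Hw) knockdown lie at 90.9% to 97.4% for ribosomal protein genes and at 64.4% to 79.8% for other genes, and the NURF301 points after Su(Hw) knockdown overlap.

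After Su(Hw) knockdown the Su(Hw) lists held 74, 77 and 96 peaks and no ribosomal protein gene, against 5.5 ± 0.548 genes in mock cells (SD, n = 6). RpL28, RpL37-1, RpS9, RpS15Aa and RpS21 were each called lost, 5 of 6 genes tested (Fisher exact test, adjusted p = 0.0151), and so were 79.0% of all genes tested. Against mock2 alone the difference was -6 genes. The 6th gene tested was RpS13, whose 3 lists did not allow a loss to be called. With the summit required within 500 bp 2 genes were called. With every list reduced to the same number of strongest peaks, 74, no ribosomal protein gene was tested, so none could be called.

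NURF301 was listed at fewer ribosomal protein genes after Su(Hw) knockdown, although Su(Hw) itself had been present at only 5 of them in mock. The lists held 36, 32 and 34 genes, a mean of 34 ± 2 (SD, n = 3), against 84.5 ± 5.47 in mock cells (SD, n = 6), without overlap. These NURF301 lists were short, with 1819, 1965 and 2027 peaks, and the part of list length in the difference was not tested. NURF301 was called lost at 23 of 37 ribosomal protein genes tested, each with an adjusted p of 0.0268 in the Fisher exact test, and 44.4% of all genes tested were called lost. Over the genes with NURF301 in mock, these were 26.4% of ribosomal protein genes and 20.6% of all genes. The 23 were RpL7A, RpL10Ab, RpL19, RpL22, RpL24, RpL26, RpL27, RpL35A, RpL37A, RpL41, RpLP0, RpLP2, RpS2, RpS10b, RpS12, RpS13, RpS15, RpS15Aa, RpS16, RpS21, RpS23, RpS28b and RpS30. RpLP0 and RpLP2 encode proteins of the stalk that binds translation factors. RpS15Aa and RpS21 are the only genes among the 23 with Su(Hw) in mock. With every list reduced to the same number of strongest peaks none was called, and the difference in means turned to 3 genes more after knockdown. Against mock2 alone the difference was -49 genes.

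Of the 87 ribosomal protein genes with NURF301 in mock, 39.1% ± 2.3 had it in a Su(Hw) knockdown list, against 38.7% ± 2.95 of the other genes (SD over 3 lists each). The shares differed by whether another gene ended in the windows. Where none did, NURF301 was kept at 44.4% ± 5.56 of 18 ribosomal protein genes and 23.2% ± 0.79 of other genes, and where one did, at 37.7% ± 2.51 of 69 and 41.3% ± 3.59 of other genes (SD over 3 lists; not tested). NURF301 was kept in all 3 lists at 17 genes (RpL3, RpL5, RpL7, RpL10, RpL15, RpL21, RpL24-like, RpL28, RpL29, RpL32, RpL34b, RpL38, RpLP0-like, RpLP1, RpS5a, RpS19a and RpS20), in 2 lists at 18, in 1 list at 15 and in none at 37. The 17 genes include the 5 with the strongest NURF301 peaks in mock. Their median NURF301 percentile in mock was 89.6 (70.3 to 99.6), and that of the 37 genes was 52.9 (21.9 to 83.5). No ribosomal protein gene had NURF301 in every list of all 3 knockdowns.

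**Figure D5:**
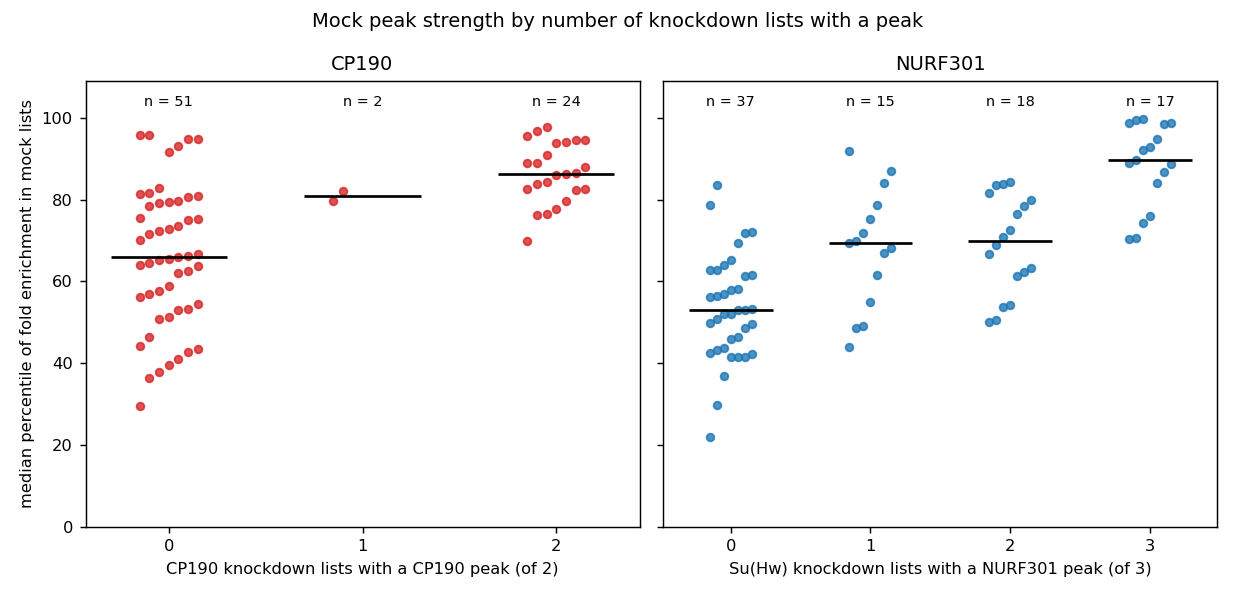
Median percentile of the peak in mock and mock2 lists (vertical, 0 to 100) of each cytoplasmic ribosomal protein gene with the protein in mock, by the number of knockdown lists with a peak, for CP190 after CP190 knockdown and NURF301 after Su(Hw) knockdown (line, median; n, genes). The medians are 66 and 86.3 at 0 and 2 CP190 lists, and 52.9 and 89.6 at 0 and 3 NURF301 lists. Percentiles are by −log10 q, although the axis names fold enrichment.

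CP190 stayed at ribosomal protein genes after Su(Hw) knockdown as well. The lists held 75, 71 and 73 genes, a mean of 73 ± 2 (SD, n = 3), against 81.7 ± 7.63 in mock cells (SD, n = 6), with overlap. Of the 77 genes with CP190 in mock, 94.8% ± 2.6 had it in a knockdown list, against 70.2% ± 5.9 of the other genes (SD over 3 lists each). These lists were short, with 3688 to 4227 peaks, and the part of list length and of mock peak strength in this difference was not tested. None of 14 ribosomal protein genes tested was called lost by the Fisher exact test, where 24.6% of all genes tested were. This count says little of these genes, since 11 of the 14 had CP190 in the 3 mock lists alone, where no loss can be called. Over the genes with CP190 in mock, 0 of 77 ribosomal protein genes and 8.94% of all genes were called lost. The unadjusted exact p was under 0.05 at 2 of the 14 genes (14.3%) and at 1209 of 2672 genes tested (45.2%). The 2 were RpS5b and RpS10a, each with 0 of 3 knockdown and 5 of 6 mock lists (exact p = 0.0476, adjusted p = 0.105). Without mock2 replicate 1 both were called lost. RpL10Ab and RpS12 had CP190 in 1 knockdown list, RpL4 and RpS13 in 2, and the other 71 genes in all 3. Knockdown minus mock, the difference in means was -8.67 genes against all mock lists, -2 against mock2 alone and 15.2 with every list reduced to the same number of strongest peaks. At that equal length, 4 of 17 ribosomal protein genes tested were called gained, as were 15.6% of all genes tested. They were RpL9, RpS15Ab, RpS19b and RpS28b, with CP190 in 3 of 3 knockdown lists and 0 of 6 shortened mock lists each (Fisher exact test, adjusted p = 0.0405). In the full mock lists RpL9 and RpS15Ab had CP190 in 5 of 6, and RpS19b and RpS28b in 6 of 6.

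Both proteins could be followed at the 76 genes with NURF301 and CP190 in mock. After Su(Hw) knockdown 27 of them had CP190 in all 3 lists and NURF301 in none, among them RpL7A, RpL19, RpLP0, RpS2 and RpS15Aa. The opposite pattern, seen at 0 genes, was possible only at RpS5b, the only gene of the 76 without CP190 in these lists. The share of all genes with the pattern of the 27 was not counted. Taken singly, NURF301 was in no list at 42.5% of ribosomal protein genes and 43.9% of other genes with it in mock. CP190 was in all 3 lists at 92.2% and 60.1%. The CP190 lists of this knockdown held 3688 to 4227 peaks and the NURF301 lists 1819 to 2027. The part of this difference in the pattern of the 27 genes was not tested. At genes with no other gene ending in their windows, CP190 was kept after Su(Hw) knockdown at 92.3% of 13 ribosomal protein genes and 55% of other genes. After NURF301 knockdown the values at such genes were 92.3% and 62.6%.

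Among the other genes of translation, CP190 was kept after NURF301 knockdown at 73.6% of mitochondrial ribosomal protein genes, 82.2% of initiation factor genes and 83.3% of elongation factor genes with CP190 in mock. After Su(Hw) knockdown the shares were 77.6%, 83.3% and 83.3%. After CP190 knockdown CP190 was kept at 32.5% of cytoplasmic and 10.3% of mitochondrial ribosomal protein genes with CP190 in mock. For initiation factor genes the share was 20% and for elongation factor genes 16.7%. For all genes outside the cytoplasmic ribosomal protein set it was 16.4%. NURF301 after Su(Hw) knockdown was called lost at 17 of 26 mitochondrial ribosomal protein genes tested and 5 of 10 initiation factor genes tested. It was called lost at 2 of 3 elongation factor genes tested, and at 44.4% of all genes tested. Over the genes with NURF301 in mock, the lost were 17 of 73, 5 of 35 and 2 of 7, against 20.6% of all genes. NURF301 was kept at a mean of 46.1%, 56.2% and 33.3% of these sets, against 39.1% of cytoplasmic ribosomal protein genes. None of these shares was tested against another.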

How the data were processed

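Each deposited list holds the peaks of 1 library. MACS2 2.2.7.1, Bowtie2 2.4.2, Picard 2.25.2 and SAMtools 1.12 are named in the submitters' processing notes. Their settings, the control library and the genome build are not given in the sources used here. The deposited ratio is the fold enrichment of each peak, and the deposited −log10 q gives its significance. Both are the authors' values. Peaks were ranked and filtered within a list by −log10 q, and the fold enrichment is only printed. The summit position is also the authors'.

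Computing used scipy 1.17.1, pandas 2.3.3 and numpy 2.4.6 under Python 3.11.15, with matplotlib 3.10.9 for figures. The 46 lists were used, and 17 input samples were not. Gene ends came from a RefSeq table of Release 6 and gave names and neighbours only. The extents of the peaks fit that release. Printed coordinates are those of the peaks, counted from 1. The test was checked on simulated data. No sequence was used.

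The genes, lists and tests were chosen with earlier results of these data known. Genes were named where they lacked NURF301 or CP190 in mock, had Su(Hw), Mod(mdg4)67.2 or GFP, were called, had no peak left in a knockdown (10 genes or fewer), ranked in the top 5, differed between mock series or formed a paralogue pair. Genes with a peak in some lists, or kept in all, are named besides, after their values were seen. Alternatives were the summit in place of any overlap, a window of 1000 bp, a −log10 q of at least 20, the matching mock series, lists of equal length, each library left out and a replicate block. Not every gene counted is reported here by name.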

Additional observations from a re-analysis of the deposited data

Results flagged for a closer look

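Among the NURF301 lists of mock cells, replicate 2 of mock2 stood apart, with 74 cytoplasmic ribosomal protein genes where the next lowest list had 83 and the highest 88. The gap is 0.643 of the whole range, above Dixon's 95% critical value of 0.625 for 6 samples. This list was also the shortest of the 6, with 4608 peaks. Of 3 groups of 6 lists examined this was the only one past the value, which chance passes in about 1 in 20 groups.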

How the results depend on the processing

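The counts below are genes called lost (called) and the knockdown minus mock difference in mean genes per list (difference). Requiring the summit within 500 bp gave a difference of -73.2 for NURF301 after NURF301 knockdown, -0.833 for Su(Hw) after NURF301 knockdown and -3.17 for Su(Hw) after Su(Hw) knockdown, where 2 were called. It left 3, 1 and 3 genes with Su(Hw), Mod(mdg4)67.2 and GFP in mock, and a window of 1000 bp gave 8, 7 and 8. That window gave a difference of -2.83 with 2 called for Su(Hw) after NURF301 knockdown and -8.17 for Su(Hw) after Su(Hw) knockdown. At −log10 q of 20 or more the differences were -22.2 (CP190 after NURF301 knockdown), -2.5 (Su(Hw) after NURF301 knockdown), -31.8 (NURF301 after CP190 knockdown) and -70 with 37 called (NURF301 after Su(Hw) knockdown), and GFP had 2 genes. GFP had 3 genes where every list was required. With lists of equal length (the same number of strongest peaks) the direction turned for CP190 after NURF301 knockdown (8.83), CP190 after CP190 knockdown (1.5, with 0 called), NURF301 after Su(Hw) knockdown (3, with 0 called) and CP190 after Su(Hw) knockdown (15.2, with 4 called gained and 0 lost). The difference was -5.33 for NURF301 after CP190 knockdown. For Su(Hw) after both knockdowns it was 0, and no ribosomal protein gene was tested, so none could be called. This setting removes the difference in list length by construction and was not run for NURF301 after NURF301 knockdown. Against the matching mock series the differences were -16 (CP190 after NURF301 knockdown), -1 (Su(Hw) after NURF301 knockdown), -6 (Su(Hw) after Su(Hw) knockdown) and -2 (CP190 after Su(Hw) knockdown), and 3 against 3 lists cannot give a called gene. Paired by number, the replicate block gave the same -16, -1, -6 and -2. No label says that a number marks a shared culture, and the correlations of same-numbered lists were -0.22 to 0.06. With 2 or 3 lists in a group, these cannot tell whether the samples are paired. Leaving out each list in turn gave 0 to 2 called for CP190 after NURF301 and after Su(Hw) knockdown, 0 to 1 for Su(Hw) after NURF301 knockdown, 0 to 51 for CP190 after CP190 knockdown, and 3 to 5 genes with GFP. With a CP190 knockdown list left out no gene can be called, and the differences were -56.7 for CP190 and -15.5 to -10.5 for NURF301. Chosen after seeing the data, leaving out the short mock lists (NURF301 mock replicate 3 and mock2 replicate 2, CP190 mock2 replicate 1) gave 2 called for CP190 after NURF301 and after Su(Hw) knockdown and 37 for NURF301 after Su(Hw) knockdown. The cause of these shifts was not tested. Of the other values, 84 called counts and 40 mock counts stayed within 1.5-fold of the main setting, and 99 differences kept their direction. Among these counts, NURF301 after Su(Hw) knockdown went from 23 to 33 called without mock2 replicate 2. Genes with NURF301 in mock went from 87 to 73 where every list was required.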
